A study of Mus musculus with 8 samples.

Results

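Long noncoding RNAs (lncRNAs) with a mean of at least 5 FPKM over the 8 libraries of this study were examined in 32D cells with and without the glucose transporters GLUT1 and GLUT3. FPKM counts the sequenced fragments of a gene per length of the gene and per total of the library, so levels can be compared between genes. Of the 56748 genes listed, 11288 carried the lncRNA biotype, 4700 of these were above 0 in at least 1 library, and 119 reached the limit. The members were chosen by their own mean level, so their abundance is a description and not a result. In all, 72 of the 119 were at or above 5 FPKM in every library, and the other 47 were not. A member that reached the mean only through one group in which it was high had to differ between groups, so the count over the 119 in each comparison stands beside the count over these 72. The libraries at or above 5 FPKM all came from Jak2V617F for C430049B03Rik, ENSMUSG00000120454, Gm20186, Gm48614 and C130083M11Rik, from Jak2WT for AI504432, Gm16341 and 6530402F18Rik, from GLUT1/3 WT for ENSMUSG00000121039 and 2810001G20Rik, and from the dKO for Gm3830. A test of these members between the groups so divided is not independent of how they were chosen. Just inside the limit lay Gm48614 with a mean of 5.14 FPKM, Gm11714 with 5.13 and 6530402F18Rik with 5.01, and just outside it Gm47469 with 4.98, ENSMUSG00000120857 with 4.86 and Snhg6 with 4.82.

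The 32D line is an interleukin-3-dependent mouse myeloid cell line. All cells had been transduced with murine Jak2, either the normal form (Jak2WT) or the mutant kinase V617F of myeloproliferative neoplasms (Jak2V617F). Slc2a1 (GLUT1) and Slc2a3 (GLUT3) had been left intact (GLUT1/3 WT) or disrupted together by CRISPR-Cas9 (GLUT1/3 dKO), and the cells had spent 24 h in RPMI-1640 medium that held 2 ng/ml IL-3, 10% serum, 5 mM glucose and L-glutamine at 1 mM. The 4 groups were Jak2WT GLUT1/3 WT, Jak2WT GLUT1/3 dKO, Jak2V617F GLUT1/3 WT and Jak2V617F GLUT1/3 dKO, each with 2 single-cell-derived clones, numbered 1 and 3. The libraries were made from poly(A)-selected RNA. The p-values rest on the spread between the 2 clones of each group, pooled over the 4 groups, and an exact permutation test of 2 against 2 cannot go below 0.333. Values below are given for clone 1 and then clone 3 of a group.

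LncRNAs are transcripts longer than the small RNA classes that are made and often spliced like mRNAs but are not known to be translated into a conserved protein. Some act as RNAs in the nucleus, such as Malat1 in nuclear speckles and Neat1, the scaffold of paraspeckles. Others are host genes, whose introns or exons are cut into small nucleolar RNAs (snoRNAs, which guide the chemical modification of ribosomal RNA) or into microRNAs. Many others are named only by number, start next to a protein-coding gene on the other strand, or lie within one.

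Between 16846011 and 48884329 reads on genes were recovered per library, and between 124643 and 424446 of them fell on the members. The members held between 0.815% and 1.01% of all FPKM in a library, the lowest share being that of Jak2V617F GLUT1/3 WT clone 1. In the check of the knockout, Slc2a1 stood at 44.7 and 48.4 FPKM in the Jak2WT GLUT1/3 WT clones, 9.47 and 9.17 in the Jak2WT dKO clones, 64 and 53 in the Jak2V617F GLUT1/3 WT clones and 17.3 and 12.7 in the Jak2V617F dKO clones. Slc2a3 stood at 97.7 and 91.9 FPKM in Jak2WT cells with GLUT1/3 and 16 and 49.5 in those without, and 198 and 166 in Jak2V617F cells with GLUT1/3 and 48.2 and 23.8 in those without, and its difference in Jak2WT missed the threshold (log2 fold change -1.71 ± 0.49 SE, adjusted p = 0.0612). Among markers of the labelled myeloblast-like type, Mpo, Elane, Ctsg, Kit and Cebpa were under 1 FPKM in every library (5 of 8). The others, Prtn3, Spi1 and Csf2rb, were present at 3.11 to 10.2, 11.1 to 19.8 and 48.9 to 189.9 FPKM. The sum of the 8 ran from 189 to 214 FPKM with GLUT1/3 WT and from 135.5 to 171 in the dKO of Jak2WT. In Jak2V617F it ran from 157 to 159 and from 71.35 to 73.7 in the same order. All 9 markers of B cells, T cells and fibroblasts were under 1 FPKM. The summed level of 6 erythroid markers, mostly the globins Hbb-bs and Hba-a1, ran from 63.1 to 82.6 FPKM with GLUT1/3 WT and from 217 to 259 in the dKO of Jak2WT, and from 497 to 842 and from 2455 to 4248 in the same order in Jak2V617F, with Alas2 under 1 everywhere. The summed megakaryocyte markers ran from 63.1 to 91 FPKM in the 4 Jak2WT libraries and from 175 to 221 in the 4 Jak2V617F libraries. The mast cell gene Cpa3 lay between 50.8 and 100.5 FPKM in Jak2WT and at or below 1.67 in Jak2V617F, with Mcpt8, Tpsb2 and Fcer1a under 1 everywhere, while Gata2, the other marker on that list, lay between 115.5 and 124 FPKM in Jak2WT and between 119 and 163 in Jak2V617F. These marker levels moved with the same groups as the members below, and their part in the results was not tested. In bulk RNA, a change in the share of a kind of cell and a change in the RNA per cell cannot be told apart.

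The level of the members spanned almost 2 orders of magnitude. The median of their means was 9.86 FPKM, with 58 members above 10, 13 above 50 and 5 above 100, and the 5 most abundant held 36.4% of the summed FPKM of all members. By name, 24 had only an Ensembl identifier and 44 a Gm number. The median length was 1681 bases, and 19 members were under 500 bases. By the coordinates in the deposited table, 68 of the 119 did not overlap a protein-coding gene or share a start region with one, 27 overlapped one on the opposite strand, 12 overlapped one on the same strand, and 12 only started within 2000 bases of one in the divergent direction. In GENCODE vM39, some of the 68 do lie in a coding gene, such as ENSMUSG00000120863 with all of its exonic bases and Epb41l4aos with 44.7%. There, 116 members were lncRNAs, 1 was listed as protein-coding and 2 were absent. Because the strand setting of the counting is not stated, reads of a member and of a gene on the other strand at the same place cannot be told apart, and 39 members shared more than 10% of their exonic bases with the opposite strand. In all, 12 members, some of them among these 39, had over 50% of a transcript in blocks at least 95% identical to another gene, and how their reads were assigned is uncertain. The ratio of the highest to the lowest group mean was at least 2 for 47 members and under 1.5 for 32.

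**Figure D1:**
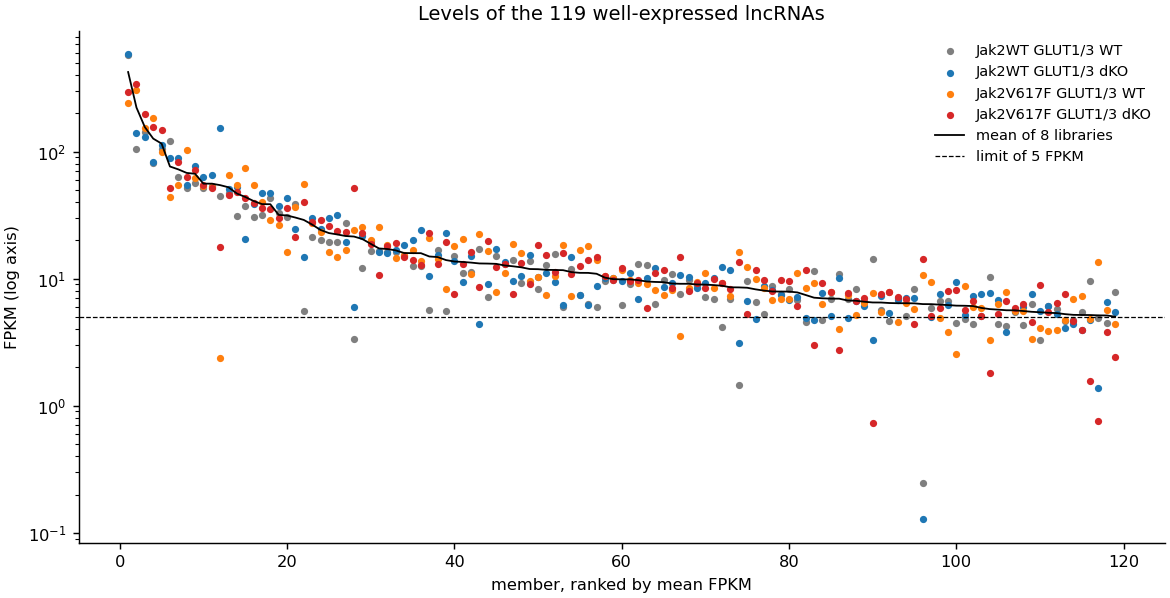
Group mean of each of the 119 members (points, FPKM on a log axis, 2 clones per group) against its rank by mean over the 8 libraries (black line). The groups lie close to the line for most members, and the widest spreads are near rank 12 (Gm35037) and among the members near the 5 FPKM limit (dashed).

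The most abundant member was ENSMUSG00000120992, at chr17:35215654-35219393 on the reverse strand (GRCm39), which stood at 559 and 585 FPKM with GLUT1/3 WT and 596 and 565 in the dKO of Jak2WT, and 251 and 230.4 with GLUT1/3 WT and 199 and 393 in the dKO of Jak2V617F. It is the member that vM39 lists as protein-coding, under the name D17H6S56E-5, and 26% of it resembled other genes. It was lower in Jak2V617F than in Jak2WT with GLUT1/3 WT (log2 fold change -1.25 ± 0.27 SE, adjusted p = 0.0129) and in the dKO (log2 fold change -1.05 ± 0.27 SE, adjusted p = 0.0372), with the groups apart in both. The first call was lost without Jak2WT GLUT1/3 WT clone 1 or 3 or Jak2V617F GLUT1/3 WT clone 3 (adjusted p = 0.0569, 0.0682 and 0.0584) and the second without Jak2WT GLUT1/3 WT clone 1 or 3, Jak2WT GLUT1/3 dKO clone 1 or 3 or Jak2V617F GLUT1/3 WT clone 1 or 3 (adjusted p = 0.0636, 0.0643, 0.162, 0.121, 0.0563 and 0.0559). Gm6093, next in level, stood at 115 and 94.5 FPKM in the Jak2WT GLUT1/3 WT clones, 139.7 and 138 in the Jak2WT dKO clones, 242 and 366 in the Jak2V617F GLUT1/3 WT clones and 351 and 328 in the Jak2V617F dKO clones. Every Jak2V617F clone lay above every Jak2WT clone, and both differences passed the test (log2 fold change 1.5 ± 0.19, adjusted p = 0.00192, and in the dKO log2 fold change 1.28 ± 0.19, adjusted p = 0.00525). Malat1 stood at 184 and 102 FPKM in Jak2WT cells with GLUT1/3 and 99.4 and 163 in those without, and 70.9 and 234 in Jak2V617F cells with GLUT1/3 and 222 and 171 in those without. The clones of a group differed as much as the groups, and Malat1 was called in no comparison.

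Gm42047 and Norad, also in the top 10, were called in no comparison. Gm42047 lay between 75.3 and 148 FPKM and Norad, which binds Pumilio proteins and helps to keep the genome stable, between 50.3 and 66.3 FPKM. All of Gm42047 resembled parts of 19 other genes, and 98.5% of Norad resembled parts of 3, of which Gm7292 is itself a member at 14.3 to 19.8 FPKM. ENSMUSG00000121093 had 84.2 and 79.6 FPKM with GLUT1/3 WT and 98.7 and 65.4 in the dKO of Jak2WT, and 186 and 183 with GLUT1/3 WT and 187 and 127 in the dKO of Jak2V617F, higher in Jak2V617F with GLUT1/3 WT (log2 fold change 1.16 ± 0.22, adjusted p = 0.00838), and all of it resembled 27 other genes. That call was lost without Jak2WT GLUT1/3 WT clone 3 (adjusted p = 0.0517). AI662270, named Slfnlnc in vM39, stood at 61.2 and 63.9 FPKM in the Jak2WT GLUT1/3 WT clones, 88.8 and 88.8 in the Jak2WT dKO clones, 56.6 and 53.1 in the Jak2V617F GLUT1/3 WT clones and 82.5 and 84.1 in the Jak2V617F dKO clones. Its dKO clones lay above the GLUT1/3 WT clones in both backgrounds (log2 fold change 0.5 ± 0.07, adjusted p = 0.00945 in Jak2WT, log2 fold change 0.59 ± 0.07, adjusted p = 0.00173 in Jak2V617F), and the Jak2WT call was lost without Jak2WT GLUT1/3 WT clone 1 or 3 or Jak2WT GLUT1/3 dKO clone 1 or 3 (adjusted p = 0.0837, 0.0643, 0.0653 and 0.0599). Platr27 stood at 52.3 and 51.5 FPKM in Jak2WT cells with GLUT1/3 and 47.5 and 61.7 in those without, and 107 and 97.8 in Jak2V617F cells with GLUT1/3 and 60 and 65.2 in those without, so that only the Jak2V617F GLUT1/3 WT clones stood apart from the rest. ENSMUSG00000120144 ranged from 56.4 to 83.3 FPKM and was higher in the dKO in Jak2WT (log2 fold change 0.43 ± 0.11, adjusted p = 0.0424), a call lost without Jak2WT GLUT1/3 WT clone 1 or 3, Jak2WT GLUT1/3 dKO clone 1 or 3 or Jak2V617F GLUT1/3 WT clone 1 or 3 (adjusted p = 0.186, 0.168, 0.213, 0.0694, 0.0525 and 0.0518).

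The next question was how the members differed with the Jak2 mutation. Between Jak2V617F and Jak2WT clones with intact GLUT1/3, 31 members were higher (26.1% of 119, where 15.3% of the 11818 genes tested were called higher) and 16 were lower (13.4%, where 14.9% were called lower). Among the 72 members at 5 FPKM or more everywhere, 20 were higher and 8 lower. Among genes of any kind with a mean of at least 5 FPKM, 19.3% were higher and 15.8% lower. The balance of directions depended on the scaling: with libraries brought to the same summed FPKM, which lowered the median of all genes by 0.13 on the log2 scale in this comparison, 25 members were higher and 26 lower, and voom on the recovered reads gave 24 and 22. Over all genes, 1223 were then called higher and 2930 lower, and 1399 and 2655 by voom. Between the dKO clones of both backgrounds, 21 members were higher in Jak2V617F (17.6%, background 7.12%) and 15 were lower (12.6%, background 9.96%), and among the 72 these were 11 and 6. The median difference over the members was 0.11 with GLUT1/3 WT and -0.0041 in the dKO (log2), against 0.0076 and -0.023 over all genes tested.

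These comparisons used separate libraries. Of the members higher in Jak2V617F, 13 were called in both, which is 41.9% of the 31 and 61.9% of the 21 (23.2% and 49.9% over all genes tested). Of those lower, 8 were called in both, 50% of the 16 and 53.3% of the 15 (28.2% and 42.3% over all genes tested). Among the higher, C430049B03Rik, ENSMUSG00000120454 and Gm20186 were at or above 5 FPKM only in Jak2V617F libraries. Among the lower, AI504432, Gm16341 and 6530402F18Rik were so only in Jak2WT libraries. Their agreement over both comparisons is not independent of how they were chosen, and the shares were not tested against those of all genes. Brip1os, Gm12056 and Gm20005 were called in opposite directions.

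Gm45353 separated all groups. It lies at chr8:123065910-123069839 on the forward strand and stood at 5.41 and 5.72 FPKM with GLUT1/3 WT and 15.8 and 14 in the dKO of Jak2WT, and 55 and 56 with GLUT1/3 WT and 44.1 and 35.6 in the dKO of Jak2V617F. All 4 groups were apart from each other. Jak2V617F was higher than Jak2WT with GLUT1/3 WT (log2 fold change 3.11 ± 0.11, adjusted p = 3.56e-05) and in the dKO (log2 fold change 1.35 ± 0.11, adjusted p = 0.000612), and both calls held in every fit that left out 1 library. Its nearest protein-coding neighbour is Zfpm1 (FOG1, the cofactor of the erythroid and megakaryocyte factor GATA1), named here after its values were seen. The 1920 bases between them are the gap between the listed gene bodies and not a distance between starts. Zfpm1 stood at 84.7 and 87.4 FPKM in the Jak2WT GLUT1/3 WT clones, 106 and 97.9 in the Jak2WT dKO clones, 277 and 225 in the Jak2V617F GLUT1/3 WT clones and 207 and 182 in the Jak2V617F dKO clones, higher in Jak2V617F in both comparisons (log2 fold changes of 1.53 and 0.92, adjusted p = 0.000438 and 0.00345). In addition, 57.9% of the exonic bases of Gm45353 are shared with a transcript on the other strand.

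3300005D01Rik, at chr17:5848932-5853516 on the forward strand, had 3.18 and 3.46 FPKM in Jak2WT cells with GLUT1/3 and 5.04 and 6.95 in those without, and 22.3 and 26.3 in Jak2V617F cells with GLUT1/3 and 56 and 48.1 in those without. It rose with the mutation in both comparisons (log2 fold change 2.55 ± 0.15, adjusted p = 0.000125, and in the dKO log2 fold change 2.93 ± 0.15, adjusted p = 0.000159) and, within Jak2V617F, with the dKO (log2 fold change 1.07 ± 0.15, adjusted p = 0.00271). Together with Gm45353 and 6530402F18Rik, it was 1 of 3 members called in all 4 pairwise comparisons. 6530402F18Rik was at or above 5 FPKM only in Jak2WT libraries, so its calls with the mutation are not independent of how it was chosen. C430049B03Rik, at chrX:52143205-52146093 on the reverse strand and named Mir503hg in vM39, had 1.46 and 1.43 FPKM with GLUT1/3 WT and 2.55 and 3.62 in the dKO of Jak2WT, and 14.5 and 17.8 with GLUT1/3 WT and 15.7 and 11.2 in the dKO of Jak2V617F. It reached the limit through its Jak2V617F libraries alone, so the log2 differences of 2.8 with GLUT1/3 WT and 1.82 in the dKO are a description. ENSMUSG00000120454, at chr6:88141842-88143167 on the reverse strand, had 0.229 and 0.261 FPKM in the Jak2WT GLUT1/3 WT clones, 0.132 and 0.122 in the Jak2WT dKO clones, 13.2 and 8.1 in the Jak2V617F GLUT1/3 WT clones and 23.4 and 4.96 in the Jak2V617F dKO clones. In Jak2WT it was close to 0, and in the Jak2V617F dKO the clones differed among themselves by several-fold. It too reached the limit through Jak2V617F libraries alone, and its log2 differences from Jak2WT, 3.19 with GLUT1/3 WT and 3.42 in the dKO, are a description.

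ENSMUSG00000120454 is 1 of the 2 members absent from vM39. Its nearest protein-coding gene, Gata2, a transcription factor of early blood and mast cells, is 27706 bases away and lay between 115.5 and 163 FPKM in all libraries, called in none of the 5 comparisons. The 150 bases around its listed start, at chr6:88143118-88143267 on the reverse strand of GRCm39, are shown because the gene model rests on the deposited annotation. No searched motif was found in these 150 bases, so the run is in lower case throughout, while the wider window of 250 bases before to 50 after the start held CACGTG.
ENSMUSG00000120454: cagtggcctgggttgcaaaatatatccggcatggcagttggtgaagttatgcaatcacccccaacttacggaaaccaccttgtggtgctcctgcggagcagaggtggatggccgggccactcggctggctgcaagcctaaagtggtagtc

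Other members that rose with the mutation did so by less. 1110028F11Rik stood at 6.05 and 5.32 FPKM in Jak2WT cells with GLUT1/3 and 10.8 and 9.96 in those without, and 23.3 and 18.3 in Jak2V617F cells with GLUT1/3 and 24.6 and 21.1 in those without, with both Jak2V617F groups above both Jak2WT groups (log2 fold change 1.7 ± 0.13, adjusted p = 0.000438, and in the dKO log2 fold change 1.06 ± 0.13, adjusted p = 0.00301). ENSMUSG00000119972 lay between 5.58 and 6.77 FPKM in Jak2WT and between 14.9 and 19.1 in Jak2V617F (log2 fold change 1.48 ± 0.11, adjusted p = 0.000379, and in the dKO log2 fold change 1.23 ± 0.11, adjusted p = 0.000894). ENSMUSG00000120081, Platr14, Gm20186, Gm43661 and ENSMUSG00000120556 completed the 13 members called higher in both, with log2 fold changes of 1.4, 1.09, 0.76, 0.78 and 0.66 with GLUT1/3 WT. Like C430049B03Rik and ENSMUSG00000120454, Gm20186 was at or above 5 FPKM only in Jak2V617F libraries, so its difference is a description.

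The members that fell were led by Gm35037, at chr7:3499873-3523536 on the forward strand. It stood at 43.9 and 46.2 FPKM with GLUT1/3 WT and 196 and 109 in the dKO of Jak2WT, and 2.86 and 1.86 with GLUT1/3 WT and 26.5 and 9.17 in the dKO of Jak2V617F. It was lower in Jak2V617F than in Jak2WT both with GLUT1/3 WT (log2 fold change -3.79 ± 0.45, adjusted p = 0.00171) and in the dKO (log2 fold change -3.13 ± 0.45, adjusted p = 0.00513). Within Jak2V617F it was higher in the dKO (log2 fold change 2.33 ± 0.45, adjusted p = 0.00934), and within Jak2WT the difference had the same sign but missed the threshold (log2 fold change 1.68 ± 0.45, adjusted p = 0.0515). Gm28187, at chr1:101820683-101822816 on the reverse strand, stood at 139.5 and 101 FPKM in the Jak2WT GLUT1/3 WT clones, 81 and 96.1 in the Jak2WT dKO clones, 32 and 56 in the Jak2V617F GLUT1/3 WT clones and 45.5 and 58.5 in the Jak2V617F dKO clones. It was lower in Jak2V617F with GLUT1/3 WT (log2 fold change -1.47 ± 0.27, adjusted p = 0.00751) and was not called in the dKO. AI504432, at or above 5 FPKM only in Jak2WT libraries, lay between 9.9 and 11.6 FPKM in Jak2WT and between 1.7 and 4.61 in Jak2V617F. Its log2 differences of -1.26 with GLUT1/3 WT and -1.62 in the dKO were called but are a description for that reason. The call with GLUT1/3 WT was lost without Jak2WT GLUT1/3 WT clone 1 or Jak2V617F GLUT1/3 WT clone 1 (adjusted p = 0.0565 and 0.0561).

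**Figure D2:**
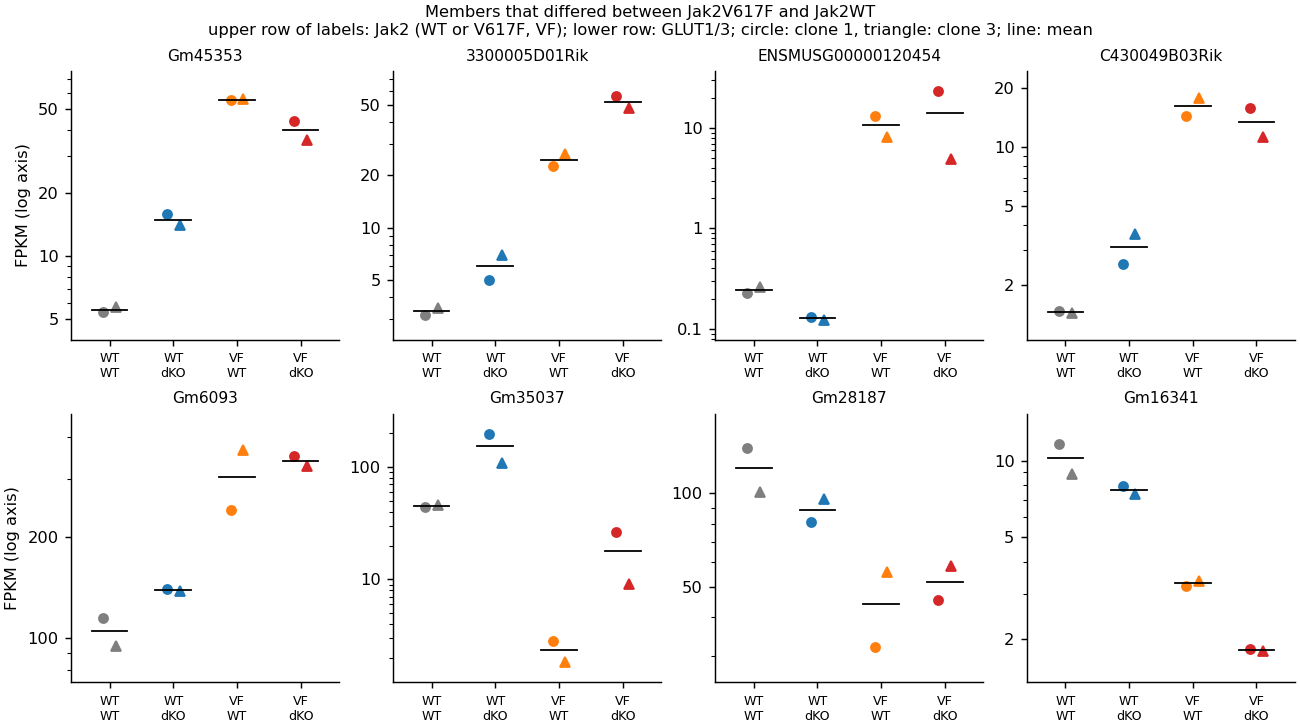
FPKM (log axis) of 8 members in the 8 libraries, with circles for clone 1, triangles for clone 3 and a line for the group mean. Gm45353, 3300005D01Rik, ENSMUSG00000120454, C430049B03Rik and Gm6093 lie higher in all 4 Jak2V617F clones than in all 4 Jak2WT clones, and Gm35037, Gm28187 and Gm16341 lower.

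Gm16341, at or above 5 FPKM only in Jak2WT libraries, was a member with a shared start region. It starts in the divergent direction beside B3gnt7, a glycosyltransferase of keratan sulfate synthesis, and overlaps Armc9. It stood at 11.6 and 8.87 FPKM in Jak2WT cells with GLUT1/3 and 7.99 and 7.37 in those without, and 3.22 and 3.38 in Jak2V617F cells with GLUT1/3 and 1.83 and 1.79 in those without. With the mutation its log2 differences were -1.37 with GLUT1/3 WT and -1.63 in the dKO. Both were called but are a description, since Jak2WT libraries alone brought it over the limit. B3gnt7 stood at 19.4 and 20.5 FPKM with GLUT1/3 WT and 14.3 and 16.6 in the dKO of Jak2WT, and 8.59 and 6.75 with GLUT1/3 WT and 2.93 and 4.38 in the dKO of Jak2V617F, so gene and lncRNA had the same order of groups.

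Of the 19 named calls with GLUT1/3 WT, 14 held in all 8 fits that left out 1 library, and of the 13 in the dKO, 8 did. Without Jak2WT GLUT1/3 WT clone 1, 31 members were called with GLUT1/3 WT in place of 47, and without its clone 3, 32. In the dKO comparison, 16 were called without Jak2WT GLUT1/3 dKO clone 3, 17 without Jak2WT GLUT1/3 dKO clone 1 and 23 without Jak2V617F GLUT1/3 dKO clone 1, in place of 36.

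The dKO was compared with GLUT1/3 WT within each background. In Jak2WT, 21 members were higher in the dKO (17.6%, background 7.62%) and 7 lower (5.88%, background 6.06%), and among the 72 these were 14 and 2. Among all genes with a mean of at least 5 FPKM, 9.3% were higher and 6.42% lower. With the same summed FPKM the counts were 15 and 10, beside 706 and 1378 over all genes in place of 901 and 716, and by voom 21 and 11, beside 1018 and 1587. In Jak2V617F, 19 members were higher (16%, background 13.7%) and 21 lower (17.6%, background 16.2%), and among the 72 these were 12 and 11, so these shares lay near the background. With the same summed FPKM the counts were 25 and 20, beside 2192 and 1452 over all genes in place of 1614 and 1919, and by voom 23 and 18, beside 2344 and 1617. The median change over members was 0.097 in Jak2WT and 0.056 in Jak2V617F (log2), against 0.0082 and -0.02 over all genes tested. The calls in Jak2WT rested on all of its libraries: 2 members were called without GLUT1/3 WT clone 1, 4 without GLUT1/3 WT clone 3, 6 without dKO clone 1 and 6 without dKO clone 3. Only Gm12056 and Gm45353, of 19 named calls in Jak2WT, held in every such fit, and 11 of 18 did in Jak2V617F. The signs of all named calls were kept in every fit.

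The members called in the same direction in both backgrounds rest on separate libraries. Higher in both were 3300005D01Rik, AI662270, AU020206, Gm12867, Gm15344, Gm3830 and Snhg5, which is 33.3% of the 21 and 36.8% of the 19 (35.2% and 19.6% over all genes tested). Lower in both were 6530402F18Rik, ENSMUSG00000120241, ENSMUSG00000121039, ENSMUSG00000121226, Gm31342, Gm34680 and Gm48614, 100% of the 7 in Jak2WT and 33.3% of the 21 in Jak2V617F (49.3% and 18.4% over all genes tested). These shares were not tested against those of all genes. Gm3830, ENSMUSG00000121039 and Gm48614 were chosen through a group compared here, so their calls are not independent of that choice. Gm45353 was called in opposite directions.

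Gm15344 lies at chr10:86527983-86528959, within Hsp90b1 and on the same strand, which encodes the endoplasmic reticulum chaperone GRP94. It stood at 6.48 and 4.65 FPKM in the Jak2WT GLUT1/3 WT clones, 18.4 and 27 in the Jak2WT dKO clones, 6.21 and 10.4 in the Jak2V617F GLUT1/3 WT clones and 16.7 and 22 in the Jak2V617F dKO clones. All dKO clones lay above all GLUT1/3 WT clones (log2 fold change 1.84 ± 0.27, adjusted p = 0.00952 in Jak2WT, log2 fold change 1.15 ± 0.27, adjusted p = 0.0188 in Jak2V617F). Hsp90b1 itself stood at 289 and 313 FPKM in Jak2WT cells with GLUT1/3 and 583 and 602 in those without, and 286 and 244 in Jak2V617F cells with GLUT1/3 and 507 and 509 in those without, with the dKO clones likewise above (log2 fold changes of 0.98 and 0.94, adjusted p = 0.00373 and 0.00103). Reads of the host gene can be counted for a gene inside it, and the share of this was not tested. The Jak2WT call of Gm15344 was lost without Jak2WT GLUT1/3 WT clone 1 or 3 or Jak2WT GLUT1/3 dKO clone 3 (adjusted p = 0.0529, 0.0669 and 0.0583) and the Jak2V617F call without Jak2V617F GLUT1/3 WT clone 1 or Jak2V617F GLUT1/3 dKO clone 3 (adjusted p = 0.0921 and 0.0833).

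Gm12867 lies inside one of the disrupted genes. Its locus, at chr4:118987489-118988198 on the reverse strand, falls in an intron of Slc2a1 (chr4:118965908-118996365, forward strand), and none of its 457 exonic bases, 0 in all, lies on an Slc2a1 exon. The Slc2a1 guide in exon 3, at chr4:118989341-118989360, is 1143 bases upstream of the start of Gm12867. The first 120 bases of Gm12867, at chr4:118988079-118988198 on the reverse strand of GRCm39, are shown to place the transcript, in lower case since no part is marked.
Gm12867: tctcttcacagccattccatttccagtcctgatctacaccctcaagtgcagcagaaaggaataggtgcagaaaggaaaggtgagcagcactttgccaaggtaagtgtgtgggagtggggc
Gm12867 stood at 5.14 and 3.78 FPKM with GLUT1/3 WT and 8.04 and 10.8 in the dKO of Jak2WT, and 1.84 and 3.23 with GLUT1/3 WT and 8.31 and 7.89 in the dKO of Jak2V617F. Its level was higher in the dKO clones of both backgrounds (log2 fold change 0.93 ± 0.22, adjusted p = 0.0333 in Jak2WT, log2 fold change 1.39 ± 0.22, adjusted p = 0.00393 in Jak2V617F), while Slc2a1, on the other strand, was lower in them (log2 fold changes of -2.2 and -1.9, adjusted p = 0.000872 and 0.000445). The Jak2V617F call of Gm12867 held without each library in turn, and the Jak2WT call was lost without Jak2WT GLUT1/3 WT clone 1 or 3 or Jak2WT GLUT1/3 dKO clone 1 or 3 (adjusted p = 0.0903, 0.169, 0.0797 and 0.155) and with the same summed FPKM (adjusted p = 0.0539).

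**Figure D3:**
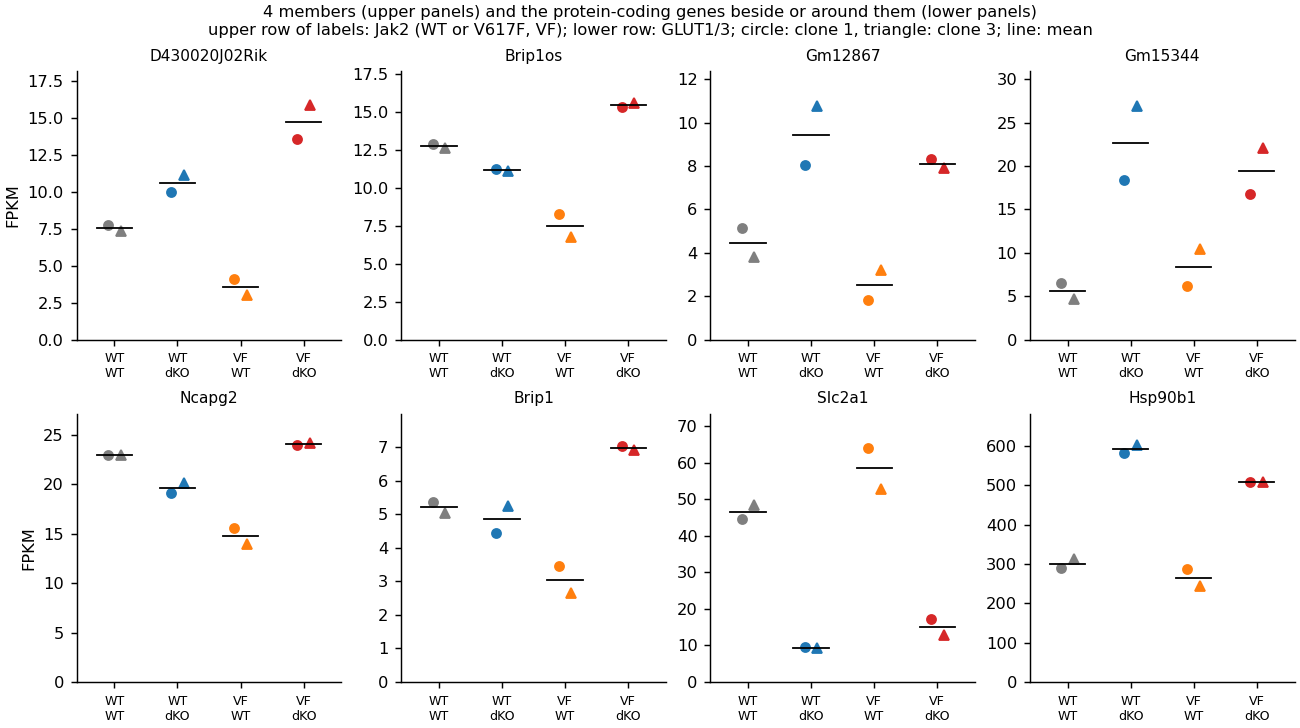
FPKM of 4 members (upper panels) and of the protein-coding gene beside or around each (lower panels) in the 8 libraries, with circles for clone 1, triangles for clone 3 and lines for group means. D430020J02Rik and Ncapg2, Brip1os and Brip1, and Gm15344 and Hsp90b1 have their highest group in common, while Gm12867 and Slc2a1 run in opposite directions with the dKO.

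Gm12056 and ENSMUSG00000120198 rose in the dKO of Jak2WT and were level in Jak2V617F. Gm12056, at chr11:22684038-22687937 on the forward strand, stood at 4.44 and 3.9 FPKM in the Jak2WT GLUT1/3 WT clones, 13 and 11.8 in the Jak2WT dKO clones, 9.4 and 9.18 in the Jak2V617F GLUT1/3 WT clones and 9.41 and 9.21 in the Jak2V617F dKO clones. Its rise in Jak2WT (log2 fold change 1.37 ± 0.09, adjusted p = 0.000672) held without each library in turn. ENSMUSG00000120198, antisense to Cd47 (the "do not eat me" surface signal), stood at 11.9 and 13.2 FPKM in Jak2WT cells with GLUT1/3 and 24.8 and 23.9 in those without, and 14.6 and 12.7 in Jak2V617F cells with GLUT1/3 and 14 and 11.7 in those without, and was higher in the dKO of Jak2WT (log2 fold change 0.9 ± 0.11, adjusted p = 0.00636). That call was lost without Jak2WT GLUT1/3 WT clone 1 (adjusted p = 0.057). Cd47 stood at 101 and 98.4 FPKM with GLUT1/3 WT and 131 and 132 in the dKO of Jak2WT, and 96.9 and 93.4 with GLUT1/3 WT and 87.3 and 88.6 in the dKO of Jak2V617F, and was also higher in the dKO of Jak2WT (log2 fold change 0.39, adjusted p = 0.0159). All exonic bases of this member lie inside Cd47, 31.2% of them on the exons of the other strand.

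Among the members lower in the dKO was Gm48614, at chr10:7877707-7897056 on the reverse strand. It stood at 4.81 and 4.9 FPKM in the Jak2WT GLUT1/3 WT clones, 1.85 and 0.893 in the Jak2WT dKO clones, 14.9 and 12.2 in the Jak2V617F GLUT1/3 WT clones and 0.591 and 0.93 in the Jak2V617F dKO clones. The 2 dKO groups overlapped and lay below both GLUT1/3 WT groups, of which Jak2V617F was the higher (log2 fold change -1.33 ± 0.2, adjusted p = 0.00984 in Jak2WT). Only the Jak2V617F GLUT1/3 WT clones were above 5 FPKM and brought its mean over the limit, so its log2 difference of -3.05 in Jak2V617F is a description. The Jak2WT call was lost without Jak2WT GLUT1/3 WT clone 1 or 3 (adjusted p = 0.0676 and 0.0669). Its nearest coding gene Tab2, an adaptor of the kinase TAK1, is 45713 bases away and named after its values were seen. Tab2 fell in the dKO of Jak2V617F (log2 fold change -1.16, adjusted p = 0.00055) and not past the threshold in Jak2WT (-0.31, adjusted p = 0.0784).

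ENSMUSG00000121039, at or above 5 FPKM only in GLUT1/3 WT libraries, starts in the divergent direction beside St8sia4, which makes polysialic acid. It stood at 14.3 and 14.3 FPKM in Jak2WT cells with GLUT1/3 and 2.52 and 4 in those without, and 8.62 and 6.77 in Jak2V617F cells with GLUT1/3 and 1.4 and 0.062 in those without. On dKO its log2 difference was -1.86 in Jak2WT and -2.44 in Jak2V617F, where dKO clone 3 held a single read. Both were called but are a description, since GLUT1/3 WT libraries alone brought it over the limit. The Jak2WT call missed the threshold with a pseudocount of 0.1 (adjusted p = 0.145). St8sia4 stood at 21.8 and 21 FPKM with GLUT1/3 WT and 8.28 and 8.37 in the dKO of Jak2WT, and 13.4 and 16.1 with GLUT1/3 WT and 2.35 and 0.855 in the dKO of Jak2V617F and fell likewise (log2 fold changes of -1.26 and -2.66, adjusted p = 0.019 and 0.000616). Gm31342 and ENSMUSG00000121226 fell with log2 fold changes of -1.74 and -1.11 in Jak2WT (adjusted p = 0.0238 and 0.0356) and -1.4 and -1.29 in Jak2V617F (adjusted p = 0.0251 and 0.0113). Gm34680 stood at 37.4 and 40.3 FPKM in the Jak2WT GLUT1/3 WT clones, 24.4 and 24.4 in the Jak2WT dKO clones, 37.3 and 35.6 in the Jak2V617F GLUT1/3 WT clones and 22.7 and 19.7 in the Jak2V617F dKO clones, with little spread within groups (log2 fold change -0.65 ± 0.09, adjusted p = 0.0078 in Jak2WT, log2 fold change -0.76 ± 0.09, adjusted p = 0.0015 in Jak2V617F). 6530402F18Rik, the last member inside the limit, fell by 0.46 in Jak2WT and by 0.65 in Jak2V617F on the log2 scale (adjusted p = 0.0404 and 0.00648). The Jak2WT calls of ENSMUSG00000121039, Gm31342, ENSMUSG00000121226, Gm34680 and 6530402F18Rik were each lost on leaving out any of the 4 Jak2WT libraries. In Jak2V617F, that of Gm31342 was lost without Jak2V617F GLUT1/3 WT clone 1 or 3 or Jak2V617F GLUT1/3 dKO clone 3 (adjusted p = 0.101, 0.078 and 0.0706) and that of ENSMUSG00000121226 without Jak2V617F GLUT1/3 dKO clone 1 (adjusted p = 0.055). In Jak2V617F, Gm17745 (log2 fold change -1.2, adjusted p = 0.0115) and ENSMUSG00000120640 (-1.28, adjusted p = 0.0249) fell as well. The call of Gm17745 was lost without Jak2V617F GLUT1/3 WT clone 1 (adjusted p = 0.0523) and that of ENSMUSG00000120640 without Jak2V617F GLUT1/3 WT clone 1 or 3 or Jak2V617F GLUT1/3 dKO clone 3 (adjusted p = 0.11, 0.0683 and 0.0585).

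D430020J02Rik, Brip1os and AU020206 rose in the dKO of Jak2V617F. D430020J02Rik, at chr12:116365567-116368830 on the reverse strand, stood at 7.74 and 7.35 FPKM in Jak2WT cells with GLUT1/3 and 10 and 11.2 in those without, and 4.08 and 3.01 in Jak2V617F cells with GLUT1/3 and 13.6 and 15.9 in those without. It was lowest in Jak2V617F GLUT1/3 WT and highest in the Jak2V617F dKO, a difference that held without each library in turn (log2 fold change 1.8 ± 0.13, adjusted p = 0.00039). It starts beside Ncapg2, a subunit of the condensin II complex that compacts chromosomes, which stood at 23 and 23 FPKM with GLUT1/3 WT and 19.1 and 20.1 in the dKO of Jak2WT, and 15.6 and 14 with GLUT1/3 WT and 24 and 24.2 in the dKO of Jak2V617F. Ncapg2 had the same lowest and highest groups (log2 fold change 0.67 in the dKO of Jak2V617F, adjusted p = 0.00148). Brip1os, at chr11:86092137-86195269 on the forward strand, stood at 12.9 and 12.6 FPKM in the Jak2WT GLUT1/3 WT clones, 11.2 and 11.1 in the Jak2WT dKO clones, 8.25 and 6.73 in the Jak2V617F GLUT1/3 WT clones and 15.3 and 15.6 in the Jak2V617F dKO clones. It too was lowest in Jak2V617F GLUT1/3 WT and highest in the Jak2V617F dKO (log2 fold change 0.96 ± 0.1, adjusted p = 0.00086). It starts in the divergent direction beside Brip1, a DNA helicase of crosslink repair, which stood at 5.37 and 5.04 FPKM in Jak2WT cells with GLUT1/3 and 4.44 and 5.25 in those without, and 3.45 and 2.64 in Jak2V617F cells with GLUT1/3 and 7.04 and 6.9 in those without and rose with it (log2 fold change 0.99, adjusted p = 0.00163). AU020206, at chr7:75418786-75431869 on the reverse strand, stood at 29.8 and 31.1 FPKM with GLUT1/3 WT and 40.5 and 45.7 in the dKO of Jak2WT, and 15.6 and 16.8 with GLUT1/3 WT and 34.7 and 37 in the dKO of Jak2V617F. Its rise in the dKO of Jak2V617F held without each library in turn (log2 fold change 1.1 ± 0.09, adjusted p = 0.000488), and it was also higher in the dKO of Jak2WT (log2 fold change 0.49 ± 0.09, adjusted p = 0.0172).

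The start regions of these members are shown in GRCm39, read 5′ to 3′ on the strand of the lncRNA, since they rose together in the dKO of Jak2V617F and D430020J02Rik and Brip1os did so with their neighbours. Capitals mark CCAAT, the motif bound by the factor NF-Y, or its reverse complement ATTGG. For D430020J02Rik and Brip1os the stretch lies between the starts of both genes, at chr12:116368831-116368939 and chr11:86092044-86092136, and for AU020206 it runs from 100 bases before to 50 after the start, at chr7:75431820-75431969.
D430020J02Rik: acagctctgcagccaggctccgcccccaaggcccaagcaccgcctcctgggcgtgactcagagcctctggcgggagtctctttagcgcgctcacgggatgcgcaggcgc
Brip1os: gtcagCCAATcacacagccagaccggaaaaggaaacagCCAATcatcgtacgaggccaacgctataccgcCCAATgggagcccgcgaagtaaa
AU020206: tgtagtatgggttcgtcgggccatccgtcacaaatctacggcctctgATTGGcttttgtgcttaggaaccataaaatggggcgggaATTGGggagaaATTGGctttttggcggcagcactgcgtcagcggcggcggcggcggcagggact
The stretch of Brip1os held CCAAT 3 times, starting at bases 6, 39 and 71, and that of AU020206 held its reverse complement 3 times, starting at bases 48, 87 and 98. The stretch of D430020J02Rik held none of the motifs. In the wider window of 250 bases before to 50 after the start, D430020J02Rik held the E2F motif TTTCCCGC and Brip1os also the ETS motif CCGGAAG. A match is a description of the letters and not of a bound site.

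Whether the change on dKO differed between the backgrounds was tested as the interaction of background and dKO, the change in Jak2V617F minus the change in Jak2WT. It was above 0 for 5 members (4.2%, background 4.72%) and below 0 for 12 (10.1%, background 5.91%), and among the 72 these were 3 and 10. With the same summed FPKM, which raised the median of all genes by 0.16 for this contrast, the counts were 8 and 8, and by voom 9 and 10. Over all genes, 1177 were then called above 0 and 393 below, and 1321 and 575 by voom. Gm45353 had an interaction of -1.75 ± 0.16 (SE, adjusted p = 0.00867), from a rise in Jak2WT to a fall in Jak2V617F. That of Gm48614, -1.71, rests on the Jak2V617F GLUT1/3 WT clones through which it was chosen and is a description. Gm12056 had -1.37 ± 0.12 (adjusted p = 0.00867), from a rise in Jak2WT alone. Gm20005 stood at 17.4 and 15.8 FPKM in the Jak2WT GLUT1/3 WT clones, 16.5 and 15.8 in the Jak2WT dKO clones, 23.7 and 27.5 in the Jak2V617F GLUT1/3 WT clones and 10.5 and 10.8 in the Jak2V617F dKO clones. It was level in Jak2WT and fell in Jak2V617F, with an interaction of -1.15 ± 0.13 (adjusted p = 0.00881). On the other side, D430020J02Rik had 1.36 ± 0.19 (adjusted p = 0.0124) and Brip1os 1.14 ± 0.14 (adjusted p = 0.00935). For AU020206 both changes were positive and that in Jak2V617F the larger, by 0.62 ± 0.13 (adjusted p = 0.0293). Their neighbours Ncapg2 and Brip1 had interactions of 0.89 and 1.07 (adjusted p = 0.01 and 0.0163), and Cd47 one of -0.5 (adjusted p = 0.0268). No interaction of a named member held in all 8 fits that left out 1 library, and without Jak2WT GLUT1/3 WT clone 3 no member passed (0 by limma, with 34 at an unadjusted p under 0.05). Called were 3 without Jak2WT GLUT1/3 WT clone 1, 2 without Jak2WT GLUT1/3 dKO clone 1 and 5 without Jak2V617F GLUT1/3 WT clone 1, in place of 17.

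**Figure D4:**
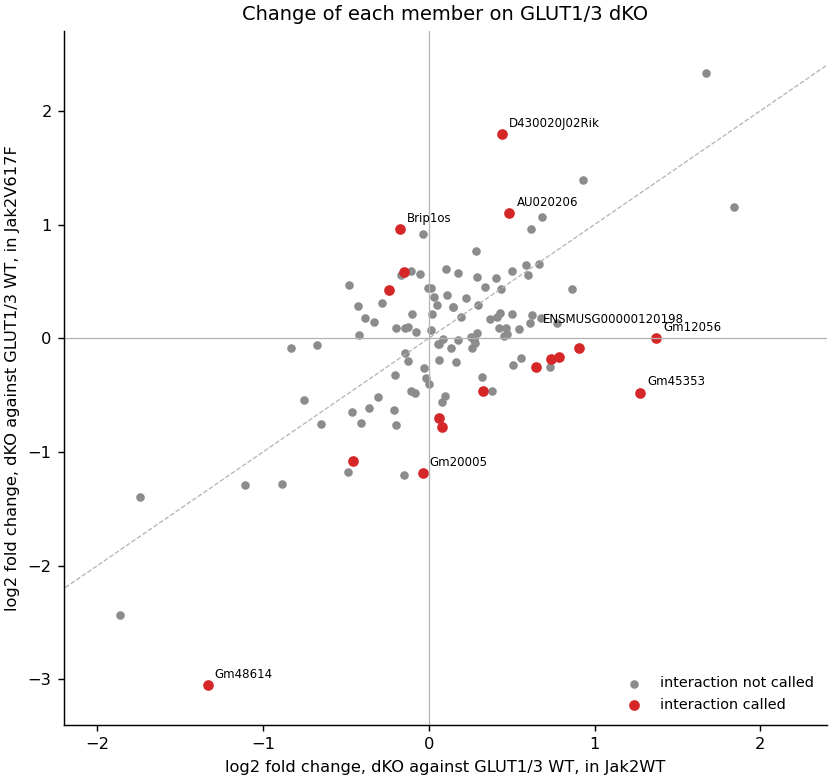
Change of each of the 119 members on GLUT1/3 dKO in Jak2V617F (log2 fold change, vertical) against that in Jak2WT (horizontal). The 17 members with a called interaction are in red and 8 of them are named: Gm45353, Gm12056, Gm20005, ENSMUSG00000120198 and Gm48614 lie below the dashed line of equal change, and D430020J02Rik, Brip1os and AU020206 above it.

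Host genes of snoRNAs formed the largest functional group. Of 25 listed, 22 were in the table, 17 passed the filter on low values and 12 were members: Snhg1, 2410006H16Rik, Zfas1, Snhg8, 1110038B12Rik, Snhg5, Gas5, Epb41l4aos, Snhg17, Snhg12, Snhg15 and Snhg4. In all, 14 members contained 43 snoRNA rows. Mature snoRNAs carry no poly(A) tail, so poly(A) libraries measure the spliced host. All but 2 of these rows were listed at 0, the exceptions being Snord7 inside AA465934 with a mean of 8.52 FPKM and Gm50451 inside AI506816 with 0.939. The summed FPKM of the 12 hosts was 258 and 241 with GLUT1/3 WT and 335 and 366 in the dKO of Jak2WT, and 309.5 and 346 with GLUT1/3 WT and 285 and 341 in the dKO of Jak2V617F. The Jak2WT GLUT1/3 WT clones were the lowest, and the other 3 groups overlapped.

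In the dKO of Jak2WT, 4 of the 12 were called, all higher (background 7.62%), and 11 had a positive change (median 0.51, against 0.0082 over all genes tested). In Jak2V617F, 2 were higher and 2 lower (background 13.7% and 16.2%, median -0.09). With the mutation, 5 were called in GLUT1/3 WT, all higher (background 15.3%, median 0.46), and none in the dKO (0 by limma and by voom, median -0.11), where 2 of the 17 tested hosts were at an unadjusted p under 0.05. The interaction was called for 4, all below 0 (background 5.91%, median -0.43). Without Jak2WT GLUT1/3 WT clone 1 or 3 or Jak2V617F GLUT1/3 WT clone 3, 3 hosts were called with the mutation in GLUT1/3 WT in place of 5. Without a filter on low values, 3 were called there and 0 for the interaction by limma. The 4 interactions were all lost without Jak2WT GLUT1/3 WT clone 1 or 3, Jak2WT GLUT1/3 dKO clone 1 or Jak2V617F GLUT1/3 WT clone 1, and 1 was called without Jak2WT GLUT1/3 dKO clone 3 or Jak2V617F GLUT1/3 WT clone 3 and 2 without Jak2V617F GLUT1/3 dKO clone 1. With the same summed FPKM, 2 interactions were called, those of Snhg12 and Zfas1 missing the threshold (adjusted p = 0.0727 and 0.0931). The dKO comparison in Jak2WT and the mutation in GLUT1/3 WT share the Jak2WT GLUT1/3 WT libraries. With the same summed FPKM the medians of these were 0.42 and 0.31, and the median of the dKO change in Jak2V617F turned from negative to 0.00061. Without Jak2WT GLUT1/3 WT clone 1, Jak2WT GLUT1/3 dKO clone 1 or Jak2WT GLUT1/3 dKO clone 3, all 4 calls in Jak2WT were lost, with medians of 0.54, 0.55 and 0.44. Without Jak2WT GLUT1/3 WT clone 3, 1 was left.

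2410006H16Rik, host of Snord49a, Snord49b and Snord65, stood at 32.8 and 29.6 FPKM in Jak2WT cells with GLUT1/3 and 54 and 51.3 in those without, and 54.1 and 55.2 in Jak2V617F cells with GLUT1/3 and 43.2 and 53.6 in those without. Only the Jak2WT GLUT1/3 WT clones were low (log2 fold change 0.74 ± 0.11, adjusted p = 0.00998 on dKO in Jak2WT, log2 fold change 0.79 ± 0.11, adjusted p = 0.00294 with the mutation in GLUT1/3 WT), and the dKO call was lost without Jak2WT GLUT1/3 WT clone 1 or 3 or Jak2WT GLUT1/3 dKO clone 1 or 3 (adjusted p = 0.0591, 0.0733, 0.0727 and 0.0553). Epb41l4aos had 10.5 and 13.8 FPKM with GLUT1/3 WT and 23.3 and 20 in the dKO of Jak2WT, and 24.2 and 26.8 with GLUT1/3 WT and 21.4 and 23.9 in the dKO of Jak2V617F, likewise lowest in the Jak2WT GLUT1/3 WT clones, with log2 fold change 0.79 ± 0.14, adjusted p = 0.0152 on dKO in Jak2WT and log2 fold change 1.02 ± 0.14, adjusted p = 0.00261 with the mutation. The dKO call of Epb41l4aos was lost without Jak2WT GLUT1/3 WT clone 1 or Jak2WT GLUT1/3 dKO clone 1 or 3 (adjusted p = 0.0908, 0.0963 and 0.0553). Zfas1, host of Snord12, stood at 32.5 and 28.8 FPKM in the Jak2WT GLUT1/3 WT clones, 36.2 and 41.1 in the Jak2WT dKO clones, 52.8 and 56.3 in the Jak2V617F GLUT1/3 WT clones and 34.9 and 43.8 in the Jak2V617F dKO clones and was highest in Jak2V617F GLUT1/3 WT (log2 fold change 0.81 ± 0.13, adjusted p = 0.00418 with the mutation). It fell in the Jak2V617F dKO (log2 fold change -0.47 ± 0.13, adjusted p = 0.03), a call lost without Jak2V617F GLUT1/3 WT clone 1 or 3 or Jak2V617F GLUT1/3 dKO clone 1 (adjusted p = 0.0766, 0.111 and 0.116) and with the same summed FPKM (adjusted p = 0.0897). Snhg12 stood at 6.79 and 6.76 FPKM in Jak2WT cells with GLUT1/3 and 7.18 and 7.26 in those without, and 10.8 and 11.3 in Jak2V617F cells with GLUT1/3 and 5.01 and 7.21 in those without, again highest there, and fell in the Jak2V617F dKO (log2 fold change -0.78 ± 0.14, adjusted p = 0.00648). Its call with the mutation in GLUT1/3 WT (log2 fold change 0.63 ± 0.14, adjusted p = 0.0135) was lost without Jak2WT GLUT1/3 WT clone 1 or 3 or Jak2V617F GLUT1/3 WT clone 3 (adjusted p = 0.0661, 0.0705 and 0.0599).

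Snhg5 and Gas5 followed the dKO. Snhg5, host of Snord50a and Snord50b, stood at 20.9 and 18.2 FPKM with GLUT1/3 WT and 28.2 and 31.4 in the dKO of Jak2WT, and 14.9 and 17.4 with GLUT1/3 WT and 23.7 and 27.9 in the dKO of Jak2V617F. Its dKO clones lay above its GLUT1/3 WT clones in both backgrounds (log2 fold change 0.58 ± 0.12, adjusted p = 0.0249 in Jak2WT, log2 fold change 0.64 ± 0.12, adjusted p = 0.00864 in Jak2V617F), and the Jak2V617F call held without each library in turn while that in Jak2WT was lost without Jak2WT GLUT1/3 WT clone 1 or 3 or Jak2WT GLUT1/3 dKO clone 1 or 3 (adjusted p = 0.0844, 0.145, 0.0847 and 0.125). Gas5, whose transcript accumulates in growth-arrested cells, stood at 19.7 and 18.8 FPKM in the Jak2WT GLUT1/3 WT clones, 26.4 and 36.7 in the Jak2WT dKO clones, 12.5 and 16.9 in the Jak2V617F GLUT1/3 WT clones and 20.9 and 26.2 in the Jak2V617F dKO clones. The dKO clones were above the GLUT1/3 WT clones in both backgrounds, but only the change in Jak2V617F passed the test (log2 fold change 0.65 ± 0.19, adjusted p = 0.0412, against log2 fold change 0.67 ± 0.19, adjusted p = 0.0619 in Jak2WT), and that call was lost without Jak2WT GLUT1/3 WT clone 1 or 3, Jak2V617F GLUT1/3 WT clone 1 or Jak2V617F GLUT1/3 dKO clone 1 or 3 (adjusted p = 0.0654, 0.0659, 0.192, 0.051 and 0.164). Snhg8 was higher in the dKO of Jak2WT (log2 fold change 0.55 ± 0.13, adjusted p = 0.037), a call lost without Jak2WT GLUT1/3 WT clone 1 or 3, Jak2WT GLUT1/3 dKO clone 1 or 3 or Jak2V617F GLUT1/3 WT clone 1 or 3 (adjusted p = 0.178, 0.137, 0.131, 0.153, 0.0519 and 0.0515). Snhg17 was higher in Jak2V617F with GLUT1/3 WT (log2 fold change 0.7 ± 0.2, adjusted p = 0.038), a call lost without Jak2WT GLUT1/3 WT clone 1 or 3, Jak2WT GLUT1/3 dKO clone 1 or 3, Jak2V617F GLUT1/3 WT clone 3 or Jak2V617F GLUT1/3 dKO clone 1 or 3 (adjusted p = 0.0668, 0.189, 0.0537, 0.0536, 0.14, 0.0501 and 0.0503). With the same summed FPKM, the Jak2WT calls of Snhg5 and Snhg8 and the call of Snhg17 missed the threshold (adjusted p = 0.0614, 0.0545 and 0.109). Snhg1 (48.6 to 69.7 FPKM), 1110038B12Rik (20 to 31.1), Snhg15 (4.83 to 10.4) and Snhg4 (6.37 to 9.07) were called in no comparison. Snhg1 starts 68 bases from Slc3a2, the heavy chain of amino acid transporters, in the divergent direction. Slc3a2 did change, with 84.9 and 88.7 FPKM in Jak2WT cells with GLUT1/3 and 93.3 and 101 in those without, and 147 and 157 in Jak2V617F cells with GLUT1/3 and 82 and 77.5 in those without (log2 fold change 0.80 with the mutation in GLUT1/3 WT and -0.92 on dKO in Jak2V617F, adjusted p = 0.00106 and 0.000583).

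**Figure D5:**
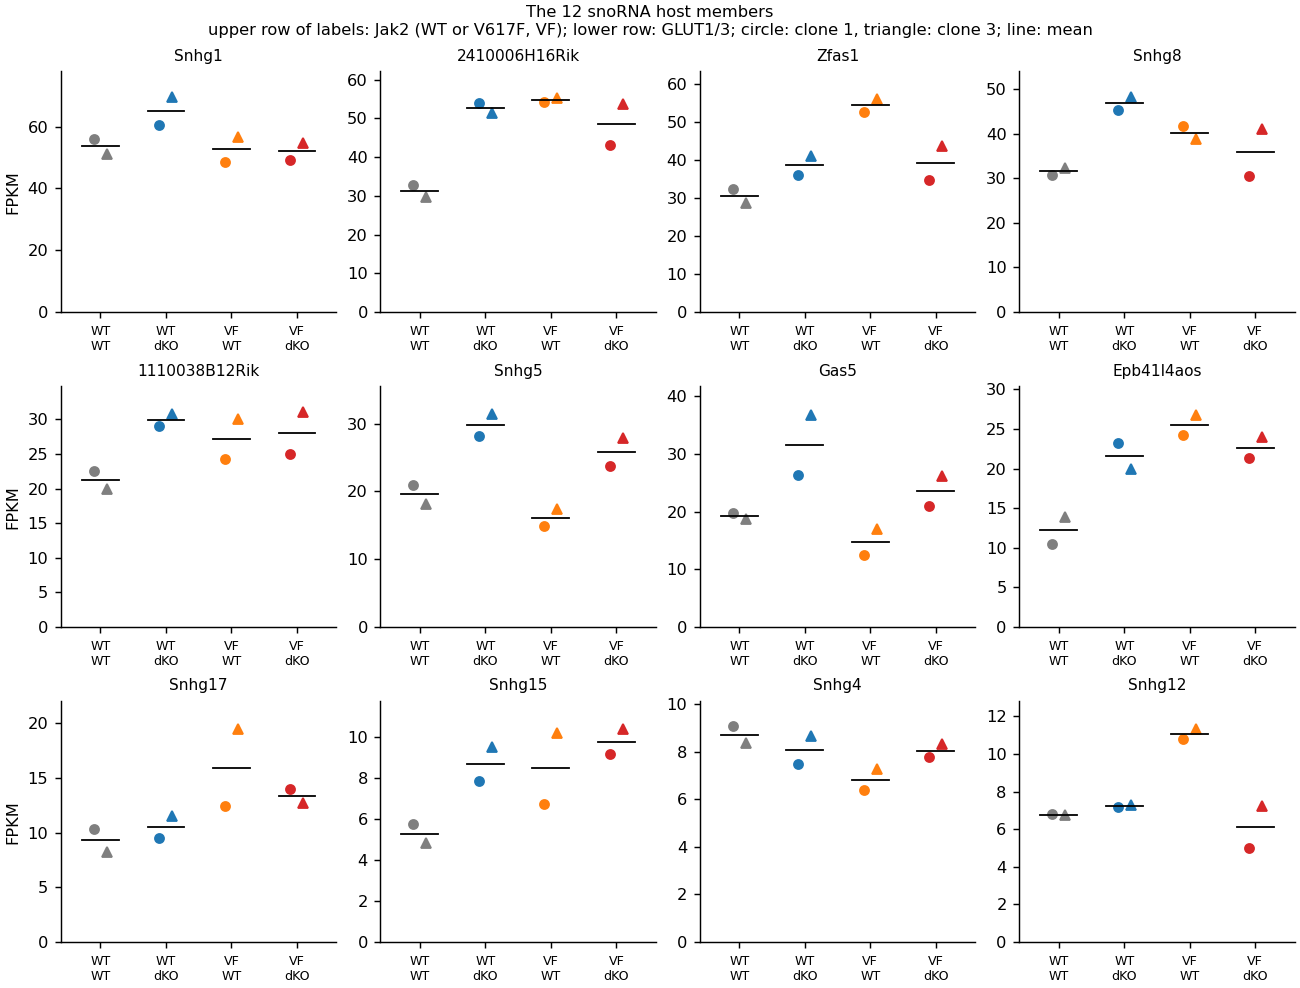
FPKM of the 12 snoRNA host members in the 8 libraries, with circles for clone 1, triangles for clone 3 and lines for group means. In 2410006H16Rik and Epb41l4aos the Jak2WT GLUT1/3 WT clones are the lowest, while in Snhg5 and Gas5 both dKO groups lie above both GLUT1/3 WT groups.

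Of 8 core proteins of the snoRNA particles, 4 rose in the dKO of Jak2WT (Nop56, Nop58, Snu13 and Dkc1; background 7.62%) and 3 in that of Jak2V617F (Nop56, Snu13 and Nop10; background 13.7%). With the mutation none was called in GLUT1/3 WT (0 by limma, 1 at an unadjusted p under 0.05, 1 by voom), and Dkc1 and Gar1 were lower in the dKO (background 9.96%). Of 17 tested factors of nonsense-mediated decay, the pathway that degrades many spliced host transcripts, Smg6 fell in the dKO of Jak2WT (background 6.06%), and 2 rose and 3 fell in that of Jak2V617F (background 13.7% and 16.2%). With the mutation, 3 were higher and 2 lower in GLUT1/3 WT (background 15.3% and 14.9%) and 1 was lower in the dKO (background 9.96%).

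MicroRNA hosts were fewer. Of 15 listed, 14 were in the table, 3 passed the filter and Mir17hg and Mir142hg were members. Mir17hg, at chr14:115280311-115284159 on the forward strand, is the primary transcript of the miR-17-92 cluster, which promotes growth in blood cells. It stood at 6.95 and 6.85 FPKM with GLUT1/3 WT and 12.6 and 10.8 in the dKO of Jak2WT, and 5.92 and 8.72 with GLUT1/3 WT and 8.57 and 8.01 in the dKO of Jak2V617F, higher in the dKO of Jak2WT (log2 fold change 0.68 ± 0.16, adjusted p = 0.0327), a call lost without Jak2WT GLUT1/3 WT clone 1 or 3 or Jak2WT GLUT1/3 dKO clone 1 or 3 (adjusted p = 0.146, 0.145, 0.17 and 0.0847) and with the same summed FPKM (adjusted p = 0.0601). Mir142hg, host of the blood cell microRNA miR-142, lay between 3.84 and 7.85 FPKM and was called in no comparison. C430049B03Rik, described above, is not on the list, and no miRNA row lies inside it. Of the rows of the cluster beside it, Mir322 lay between 0 and 2.46 FPKM and did not pass the filter on low values. Mir351 lay between 0 and 2.48 FPKM in Jak2WT and between 3.73 and 9.59 in Jak2V617F, called with GLUT1/3 WT (log2 fold change 1.76, adjusted p = 0.0216) and not in the dKO (1.32, adjusted p = 0.0826). The row of Mir503 stood at 1.07 and 0 FPKM in the Jak2WT GLUT1/3 WT clones, 2.46 and 1.43 in the Jak2WT dKO clones, 8.55 and 13.2 in the Jak2V617F GLUT1/3 WT clones and 18.2 and 10.1 in the Jak2V617F dKO clones (log2 fold changes of 3.02 and 2.33 with the mutation in GLUT1/3 WT and in the dKO, adjusted p = 0.00247 and 0.00993). These rows count fragments of poly(A) RNA over the hairpin and not the mature microRNA.

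The mature sequences, from RefSeq (GRCm38.p6), are shown for Mir17hg and for the cluster near C430049B03Rik because the seed decides the targets. Capitals mark the seed, bases 2 to 8. miR-17-5p and miR-20a-5p share the seed AAAGUGC, and miR-19a-3p and miR-19b-3p share GUGCAAA. The seeds of miR-322-5p and miR-503-5p, AGCAGCA and AGCAGCG, differ only in their last base.
miR-17-5p: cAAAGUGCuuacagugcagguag
miR-20a-5p: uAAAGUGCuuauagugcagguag
miR-18a-5p: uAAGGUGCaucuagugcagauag
miR-19a-3p: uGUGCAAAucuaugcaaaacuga
miR-19b-3p: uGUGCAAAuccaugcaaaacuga
miR-92a-3p: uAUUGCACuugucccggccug
miR-322-5p: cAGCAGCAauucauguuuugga
miR-503-5p: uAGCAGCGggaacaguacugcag

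Of 8 tested factors that process or load microRNAs, none was called in the dKO of Jak2WT (0 by limma, 2 at an unadjusted p under 0.05, 2 by voom) and Dgcr8 and Tarbp2 rose in that of Jak2V617F (background 13.7%). With the mutation, Dgcr8 was lower in GLUT1/3 WT (background 14.9%) and Ago3 higher in the dKO (background 7.12%).

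Of 13 nuclear and chromatin lncRNAs listed, 5 were tested and 4 were members: Malat1, Norad, Neat1 and Firre. Neat1 stood at 7.09 and 5.49 FPKM in Jak2WT cells with GLUT1/3 and 13 and 11.4 in those without, and 6.32 and 9.89 in Jak2V617F cells with GLUT1/3 and 11 and 11.1 in those without. It was higher in the dKO of Jak2WT (log2 fold change 0.86 ± 0.19, adjusted p = 0.0285), a call lost without Jak2WT GLUT1/3 WT clone 1 or 3 or Jak2WT GLUT1/3 dKO clone 1 or 3 (adjusted p = 0.0834, 0.154, 0.148 and 0.0877). In Jak2V617F the dKO clones lay above but close to GLUT1/3 WT clone 3. Firre, an X-linked lncRNA of nuclear organisation, lay between 6.81 and 10.3 FPKM, called in no comparison. In Jak2V617F and between the backgrounds no listed gene of this group passed (0 by limma and by voom, with at most 1 at an unadjusted p under 0.05). Among paraspeckle proteins, Rbm14 and Dazap1 fell in the dKO of Jak2WT and Tardbp rose in that of Jak2V617F. With the mutation, Rbm14 and Tardbp were lower in GLUT1/3 WT and Pspc1 lower in the dKO.

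The other lists held few members. None of 9 imprinted lncRNAs, 8 of them in the table, passed the filter on low values. Of 7 lncRNAs linked to p53 or Myc, 5 were tested and Neat1 was among the members. Trp53cor1 and Pvt1, which were tested but are not members, were higher in Jak2V617F with GLUT1/3 WT (background 15.3%). Of 7 lncRNAs linked to myeloid or erythroid cells, 2 were tested, and Ttc39aos1 was higher in Jak2V617F in both comparisons (background 15.3% and 7.12%) with an interaction below 0 (background 5.91%).

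Neighbouring genes were counted over all members. In 23 pairs of a member and a tested protein-coding gene with divergent starts, both were called in 1 pair in the dKO of Jak2WT and in 8 pairs in the dKO of Jak2V617F, in the same direction each time. The member was called in 2 and 12 of these pairs and the neighbour in 4 and 12. With the mutation both were called in 10 pairs in GLUT1/3 WT, 8 of them in the same direction, and in 3 in the dKO, all in the same direction. Here the member was called in 13 and 7 pairs and the neighbour in 12 and 8. These counts were not tested against chance. The opposite pairs were 4930570N18Rik with Traf3ip3 and Gm20186 with Lsm8. Some pairs with divergent starts also overlap on opposite strands and are counted again in the next set. Zfas1 with Znfx1, Gm10612 with Cbfa2t3 and Gm17300 with Rcc1 are among them. In 30 pairs that overlap on opposite strands, both were called in 3 and 4 pairs on dKO in Jak2WT and Jak2V617F, and 1 and 3 of these had the same direction (member called in 3 and 10, neighbour in 8 and 12). With the mutation both were called in 4 pairs in GLUT1/3 WT (member called in 7, neighbour in 12) and in 4 in the dKO (member in 8, neighbour in 9), all in the same direction. The pairs in opposite directions on dKO were Gm12867 with Slc2a1 in both backgrounds and, in Jak2WT, 2410006H16Rik with Lrrc75a. In 10 pairs on the same strand, both were called in 3 and 3, of which 2 and 3 had the same direction (member called in 3 and 4, neighbour in 4 and 3). With the mutation both were called in 1 pair in each comparison, 6530402F18Rik with Ntng2, in the same direction.

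Promoters of the members, taken as 250 bases before to 50 after the listed start, had a median GC content of 51.3%, against 57.7% for all genes tested and 59.3% for the protein-coding ones. On either strand, CCAAT was in 43.7% of the members' promoters and 38.9% of all 11780 promoters of tested genes, the hypoxia response core ACGTG in 23.5% and 25.1%, the E-box CACGTG in 10.1% and 9.49%, which holds the former on both strands, and the STAT motif TTCNNNGAA in 5.88% and 7.26%. TATAAA was in 14.3% and 8.76%, the ETS motif CCGGAAG in 9.24% and 17.1%, and the ATF and CREB motif TGACGTCA in 2.52% and 3.07%. The E2F motifs TTTCCCGC and TTTGGCGC, added after values were seen, were in 3.36% and 1.83% and in 1.68% and 0.968%. A run of pyrimidines at the start, the mark of genes whose translation follows growth signals, was found in 23.5% and 20.4%, and in 3 of 14 hosts of snoRNAs.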

How the data were processed

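The 8 libraries were assigned to the 4 groups by the clone names in the labels. Per the methods of the study, reads were cleaned with fastp 1.0.1, aligned to mm39 (GRCm39) with HISAT2 2.2.1 and counted per gene with featureCounts 2.0.6. The values deposited by the authors are FPKM; the annotation version, the strand setting and the total used for scaling are not given in the sources used here. Of the columns of per-sample values, 0 were left unused. FPKM times gene length was a whole multiple of 1 read in each library (tolerance 0.01 reads), which gave reads per gene, between 16846011 and 48884329 per library. The lowest read number of a member in a library was 1, so that values of that size carry large counting error.

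Genes with at least 1 FPKM in at least 2 libraries (11818, among them all 119 members) were tested on log2(FPKM + 1), which understates changes of low genes, with limma 3.58.1 in R 4.3.3 (1 mean per group, empirical Bayes with trend, 4 residual degrees of freedom) and Benjamini-Hochberg adjustment over all tested genes, 2-sided, at a threshold of 0.05. Every adjusted p is from this fit unless another is named, and ± gives the standard error. The dKO was compared with GLUT1/3 WT in each background, Jak2V617F with Jak2WT in GLUT1/3 WT and in the dKO, and the difference of both dKO changes as an interaction. The fit was tested on simulated data. Alternatives were leaving low genes in, filtering on the mean, a smaller pseudocount (0.1), no trend, other scalings, voom on the recovered reads, only the groups compared, a replicate block and leaving out each library.

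Named were the 10 most abundant members, all members on the gene lists, the 6 largest called changes in each direction and comparison whose clones did not overlap, the 3 members or lncRNAs on either side of the limit, overlapping or divergent coding neighbours, hosted small RNAs and both targeted genes. Zfpm1, Gata2, Tab2, Mir322, Mir351 and Mir503 were named after their values were seen. The members, lists and tests were chosen with earlier results of these data known. Similar sequence was searched with BLAST 2.17.0. Some items of the cells and gene lists are not reported here.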

Additional observations from a re-analysis of the deposited data

Results flagged for a closer look

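For 17 members the change on dKO differed between the Jak2V617F and Jak2WT backgrounds by limma's test of the interaction (log2 change in Jak2V617F minus that in Jak2WT, adjusted over all genes tested). All values compare 2 clones with 2 in each background, and no group was large enough to test a single clone as an outlier. The interaction was below 0 for Gm45353 (-1.75, adjusted p = 0.00867), Gm48614 (-1.71, adjusted p = 0.0177, and 0.0816 by voom), Gm12056 (-1.37, adjusted p = 0.00867), Gm20005 (-1.15, adjusted p = 0.00881), ENSMUSG00000120198 (-0.99, adjusted p = 0.0165), ENSMUSG00000120241 (-0.62, adjusted p = 0.0268), C78283 (-0.90, adjusted p = 0.0448) and Platr27 (-0.76, adjusted p = 0.0406). It was also below 0 for the snoRNA hosts Epb41l4aos (-0.95, adjusted p = 0.0299), 2410006H16Rik (-0.92, adjusted p = 0.0184), Snhg12 (-0.86, adjusted p = 0.037) and Zfas1 (-0.795, adjusted p = 0.0366). It was above 0 for D430020J02Rik (1.36, adjusted p = 0.0124), Brip1os (1.14, adjusted p = 0.00935), C130083M11Rik (0.74, adjusted p = 0.026), Gm28875 (0.66, adjusted p = 0.023) and AU020206 (0.62, adjusted p = 0.0293). Gm48614 and C130083M11Rik reached 5 FPKM in 1 Jak2V617F group alone, so their tests are not independent of how the members were chosen.

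Of the 8 fits that left out 1 library, Gm45353 and Gm12056 were called in 7 and Gm20005 in 6. Brip1os and D430020J02Rik were called in 5, and Gm48614, ENSMUSG00000120198 and 2410006H16Rik in 4. The other 9 were called in at most 3, and Platr27 in 0.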

How the results depend on the processing

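Of 84 named calls, 35 held in all 8 fits that left out 1 library and 48 in all other settings (9 for the pairwise comparisons and 8 for the interaction), and 0 changed sign. Without a filter on low values, which tests more genes, 11 members were called for dKO in Jak2WT (28 as reported), 18 for Jak2V617F against Jak2WT in the dKO (36) and 5 for the interaction (17). With only the groups compared, 21 were called for Jak2V617F against Jak2WT in the dKO, and the interaction could not be fitted. Leaving out each library gave 2 to 33 members for dKO in Jak2WT, 30 to 41 for dKO in Jak2V617F (40 as reported), 31 to 53 for Jak2V617F against Jak2WT in GLUT1/3 WT (47), 16 to 37 in the dKO and 0 to 20 for the interaction. These fits leave 1 clone in a group, which is assumed to vary like the other groups. With the clone number as a replicate block the counts were 28, 43, 52, 34 and 18, in the order dKO in Jak2WT, dKO in Jak2V617F, Jak2V617F against Jak2WT in GLUT1/3 WT, the same in the dKO, and the interaction. Over the 6 pairs of groups, deviations of same-numbered clones correlated at -0.254 to 0.152, so the numbers did not pair the samples, for which 0.1 was needed in every pair. Depth limits the lowest values, since a member held as little as 1 read in a library.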
